A study of Arabidopsis thaliana with 2 samples.

Results

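The genes described here are 10 nuclear genes of Arabidopsis thaliana that carry light perception and its first transcriptional steps: the photoreceptor genes PHYA (AT1G09570), PHYB (AT2G18790) and CRY1 (AT4G08920), the ubiquitin ligase gene COP1 (AT2G32950), the bZIP factor genes HY5 (AT5G11260) and HYH (AT3G17609), and the bHLH factor genes PIF1 (AT2G20180), PIF3 (AT1G09530), PIF4 (AT2G43010) and PIF5 (AT3G59060). They were chosen by gene identifier, with earlier results of these data known. All 10 are among the 18615 named genes of the deposited table, which lists PIF1 as PIL5 and PIF5 as PIL6. Shoots of wild-type seedlings of the Col-0 accession were compared with shoots of the bts-1 mutant, which carries an allele of BTS, a gene for an E3 ubiquitin ligase that restrains the iron deficiency response. Both genotypes grew on 1/2 MS medium without sucrose. Plant age, light regime, hour of harvest, the number of plants per library and the nature of the bts-1 lesion are not given in the sources used here. A single library stands for each genotype: every difference below is one between 2 libraries, with no test and no spread to set it against.

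Phytochromes absorb red and far-red light and cryptochromes absorb blue light. In darkness the COP1 ligase, together with SPA proteins, marks HY5 and other growth regulators for degradation, while PIF proteins accumulate and drive elongation. In light the active photoreceptors restrain COP1 and bind PIF proteins, which are then broken down, and HY5 with its close relative HYH turns on genes of greening, pigment synthesis and photoprotection. Much of this control acts on proteins, which an RNA table does not measure.

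Levels are given as log2(FPKM + 1), where FPKM counts sequenced fragments per length of transcript and per sequencing depth, and ratios are differences on that scale, the level in bts-1 minus that in Col-0. A gene was counted if its FPKM was at least 1 in either library, and a difference of at least 2-fold is a log2 ratio of at least 1 in size. Of 18510 genes counted, 1.92% passed 2-fold upward in bts-1 and 3.63% downward, and 54.8% had a ratio above 0 and 45.1% below 0. BTS (AT3G18290) stood at 10.84 in Col-0 and 9.57 in bts-1, so the transcript of the mutated gene was lower in the library labelled bts-1. All 6 leaf markers had levels above 10 in both libraries. The gene for a light-harvesting protein of photosystem II, LHCB1.1 (AT1G29920), stood at 11.22 in Col-0 and 11.54 in bts-1. The Rubisco small subunit genes RBCS1A (AT1G67090), RBCS1B (AT5G38430) and RBCS2B (AT5G38420), near-identical copies between which reads can be split, had ratios of -0.32, -0.36 and -0.16. Of 12 root markers 4 have an entry, with summed FPKM of 1070 in Col-0 and 1176 in bts-1, nearly all of it from PYK10 (AT3G09260), a beta-glucosidase, at 10.06 and 10.19. The root markers PHT1;1 (AT5G43350), CASP1 (AT2G36100) and MYB36 (AT5G57620) stood at 2.22, 0.91 and 0.92 in Col-0 and at 2.78, 1.33 and 0.88 in bts-1. Their part in the results was not tested. In whole shoots, fewer cells of a type and less RNA per cell cannot be told apart.

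The promoters of some of the genes named below are shown first, as the 150 bases before the annotated gene start. They are read 5′ to 3′ along the gene from the RefSeq genome of build TAIR10.1 with its own annotation. The deposited table gives identifiers and no coordinates. Capitals mark the G-box CACGTG, a letter pattern that HY5 and PIF proteins are known to bind, and the E-box variant CACATG, bound by PIF proteins, with its reverse complement CATGTG. PHYA and PHYB are set side by side because their transcripts differed in opposite directions. The PHYA window is chr1:3100820-3100969 on the minus strand and the PHYB window is chr2:8139606-8139755 on the plus strand.
PHYA: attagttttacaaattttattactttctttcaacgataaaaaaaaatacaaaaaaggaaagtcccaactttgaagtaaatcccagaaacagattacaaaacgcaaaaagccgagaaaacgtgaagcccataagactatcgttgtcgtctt
PHYB: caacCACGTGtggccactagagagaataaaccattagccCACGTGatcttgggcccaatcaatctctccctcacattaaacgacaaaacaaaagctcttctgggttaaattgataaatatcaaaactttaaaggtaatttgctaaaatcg
PHYB holds a G-box at 146 and another at 111 bases before its start, and the PHYA window holds neither pattern.

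HY5 and HYH are shown because both were lower in bts-1, with ELIP1 and ELIP2, genes for photoprotective early light-induced proteins, which had the lowest ratios of the listed HY5-promoted genes. Their windows are chr5:3595074-3595223 on the minus strand for HY5, chr3:6023694-6023843 on the plus strand for HYH, chr3:8085670-8085819 on the minus strand for ELIP1 and chr4:8418092-8418241 on the plus strand for ELIP2.
HY5: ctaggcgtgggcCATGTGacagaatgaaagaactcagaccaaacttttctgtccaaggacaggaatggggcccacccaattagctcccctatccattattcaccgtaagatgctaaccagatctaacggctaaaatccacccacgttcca
HYH: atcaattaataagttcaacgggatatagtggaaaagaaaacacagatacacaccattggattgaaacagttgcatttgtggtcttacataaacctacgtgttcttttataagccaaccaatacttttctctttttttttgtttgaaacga
ELIP1: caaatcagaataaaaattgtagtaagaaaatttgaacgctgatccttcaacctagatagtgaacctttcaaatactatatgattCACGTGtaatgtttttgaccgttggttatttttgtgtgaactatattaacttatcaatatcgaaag
ELIP2: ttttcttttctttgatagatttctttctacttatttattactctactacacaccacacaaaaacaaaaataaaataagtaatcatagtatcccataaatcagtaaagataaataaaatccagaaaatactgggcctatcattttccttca
The HY5 window holds CATGTG at 138 bases, the ELIP1 window a G-box at 66 bases, and the HYH and ELIP2 windows neither pattern. The cell wall gene XTR7 and the auxin synthesis genes YUC8 and YUC9 are shown because they had the highest ratios of the listed PIF-promoted genes. Their windows are chr4:8138393-8138542 on the minus strand for XTR7, chr4:14192419-14192568 on the plus strand for YUC8 and chr1:1104343-1104492 on the plus strand for YUC9.
XTR7: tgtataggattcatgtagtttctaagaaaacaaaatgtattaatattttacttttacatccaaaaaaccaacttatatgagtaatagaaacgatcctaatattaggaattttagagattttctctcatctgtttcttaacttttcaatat
YUC8: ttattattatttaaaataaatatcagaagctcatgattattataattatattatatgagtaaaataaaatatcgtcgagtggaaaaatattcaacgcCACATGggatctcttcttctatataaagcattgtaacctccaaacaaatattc
YUC9: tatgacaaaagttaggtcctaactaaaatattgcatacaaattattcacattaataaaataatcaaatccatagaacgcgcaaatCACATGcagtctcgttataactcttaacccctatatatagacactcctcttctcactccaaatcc
CACATG lies at 53 bases in YUC8 and at 65 bases in YUC9, and the XTR7 window holds neither pattern. Searched on both strands, the G-box lies in 4.78% and CACATG in 6.89% of the windows of 27443 protein-coding genes, and the patterns do not overlap each other in these sequences. Among the 10 genes PHYB alone held a G-box and HY5 alone held CACATG. A match describes letters in this window and does not show binding.

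Of the 10 genes 1 passed 2-fold upward and 0 passed it downward, beside 1.92% and 3.63% of all genes. There were 4 ratios above 0 and 6 below. The median log2 ratio was -0.23, beside 0.04 for all genes counted. Without the chromosome 3 genes HYH and PIF5 it was 0.02. All 10 passed the minimum level in both libraries. The ratios of single genes ranged from -0.88 for HY5 to 1.04 for PHYA.

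**Figure D1:**
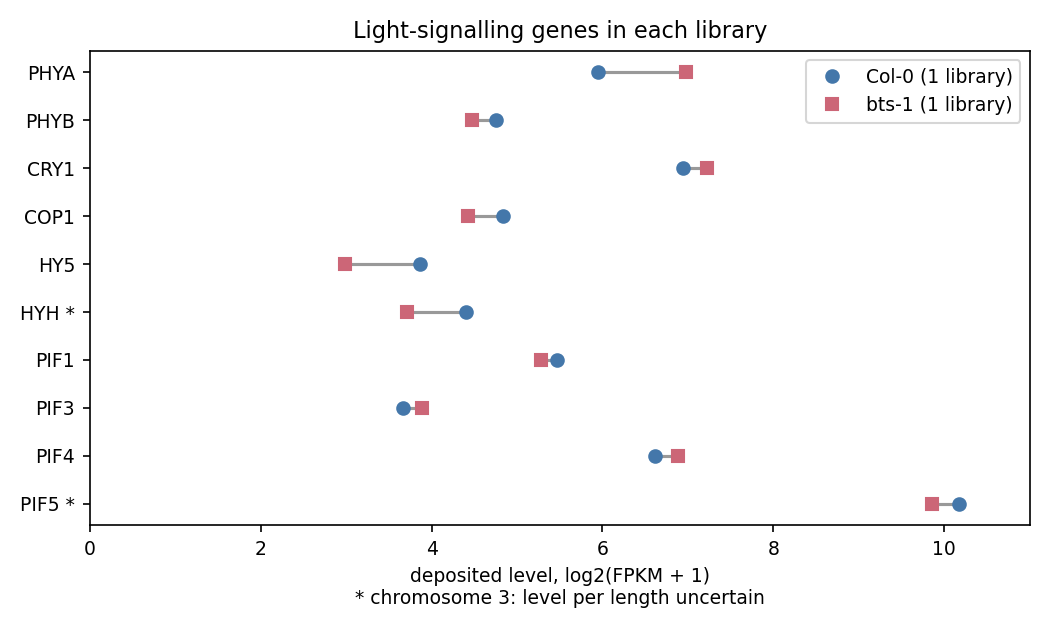
Deposited level, log2(FPKM + 1), of each of the 10 genes in the Col-0 library (circle) and the bts-1 library (square), with 1 library per genotype and no error bars. PHYA moved from 5.94 to 6.98 and HY5 from 3.87 to 2.99. The log2 ratios of PHYB, PIF1, PIF3, PIF4 and CRY1 lay between -0.28 (PHYB) and 0.28 (PIF4). The asterisk marks genes of chromosome 3, whose level per length is uncertain.

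PHYA, the receptor for far-red and very weak light, whose own gene is known to be shut down by light, showed the largest difference of the 10 genes. It stood at 5.94 in Col-0 and 6.98 in bts-1, which is an FPKM of 60.5 and 125, a log2 ratio of 1.04 or 2.05-fold on the FPKM + 1 scale. The bts-1 library is the higher of the pair. Among 2598 counted genes within 1 log2 unit of its mean level, 3.23% had a ratio at least as large in size. The value lies close to the 2-fold line and lay just below it with a pseudocount of 5 (0.99) and with ratios centred on the nuclear median (0.999853).

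PHYB, the main red light receptor of light-grown plants, stood at 4.76 in Col-0 and 4.47 in bts-1, a log2 ratio of -0.28. Of 6638 genes near its level, 38.2% had a ratio at least as large in size. The other phytochromes, which share roles with PHYB, gave ratios of 0.24 for PHYC (AT5G35840), -0.05 for PHYD (AT4G16250) and -0.45 for PHYE (AT4G18130). PHYE stood at 4.29 in Col-0 and 3.85 in bts-1, the lowest ratio of the 10 other photoreceptor genes with an entry. PHYA made up 48.8% of the summed FPKM of the 5 phytochrome genes in Col-0 and 69.2% in bts-1. PHYB made up 21.0% and 11.7% of that sum, which was 124 in Col-0 and 181 in bts-1. The FPKM of PHYA was 2.33 times that of PHYB in Col-0 and 5.91 times in bts-1. The summed FPKM of the 4 phytochrome genes other than PHYA was 63.6 and 55.7. Such shares and ratios use the deposited values, in which the libraries had been brought to nearly the same distribution.

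**Figure D2:**
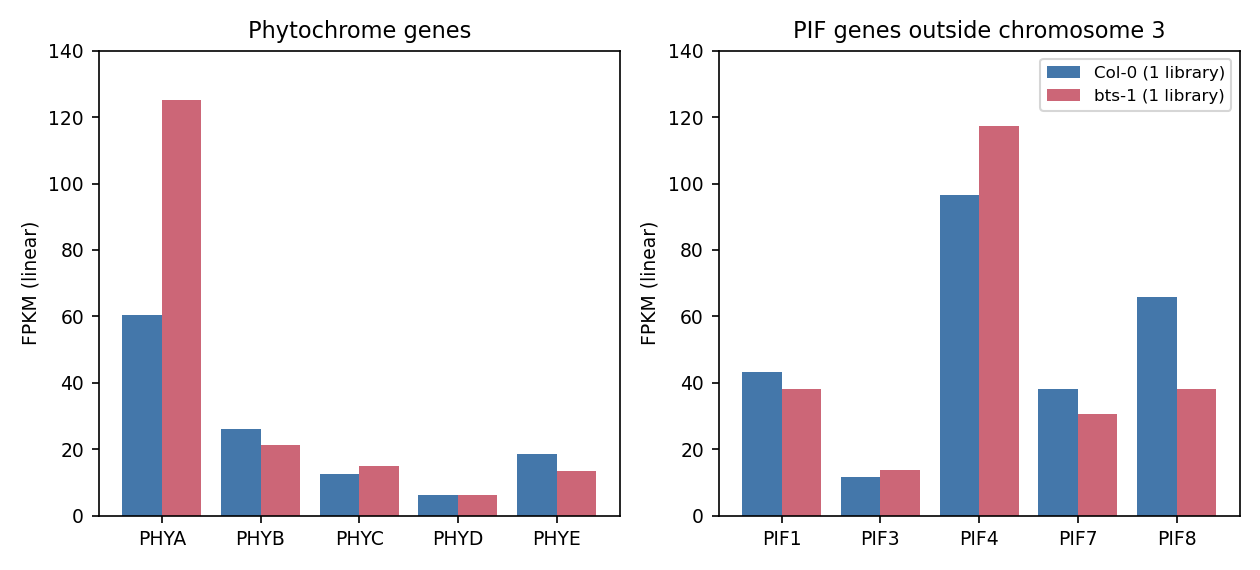
Linear FPKM of the 5 phytochrome genes (left) and of the 5 PIF genes outside chromosome 3 (right) in the Col-0 and bts-1 libraries, 1 library each, so the bars have no error. PHYA is the highest phytochrome in both libraries, at 60.5 and 125, and PIF4 the highest of these PIF genes, at 96.6 and 117.

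CRY1, the blue light receptor that acts in bright light, was the highest of the genes outside chromosome 3 in both libraries, at 6.94 in Col-0 and 7.22 in bts-1, a log2 ratio of 0.27. Of 1662 genes near the level of CRY1, 35.6% had a ratio at least as large in size. Its relative CRY2 (AT1G04400), which is unstable in blue light, stood at 5.76 and 6.06, a ratio of 0.30. The FPKM of CRY1 was 2.30 times that of CRY2 in Col-0 and 2.25 times in bts-1. Of 11 other photoreceptor genes 10 had an entry (median -0.05), and FKF1 (AT1G68050) had none. Of the 10, 0 passed 2-fold upward and 0 downward, beside 1.92% and 3.63% of all genes. The blue light receptor genes PHOT2 (AT5G58140), for chloroplast movement, and LKP2 (AT2G18915), an F-box protein of the clock, had ratios of -0.37 and 0.42.

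COP1 stood at 4.83 in Col-0 and 4.43 in bts-1, a log2 ratio of -0.41, and 22.7% of the 6595 genes near its level had a ratio at least as large in size. The list of its partners was chosen with earlier results of these data known, so its counts are no support. Of 10 genes for COP1 partners and related repressors, 8 had a ratio below 0, beside 45.1% of all genes, with 0 past 2-fold upward and 1 downward, beside 1.92% and 3.63% (median -0.37, and -0.23 without chromosome 3 genes). That gene was RUP2 (AT5G23730), which returns the ultraviolet receptor UVR8 to its inactive form, at 4.94 and 3.89, a ratio of -1.05; with a pseudocount of 5 it no longer passed. SPA4 (AT1G53090) and SPA3 (AT3G15354), which form the active ligase with COP1, had ratios of -0.79 and -0.61, and COP10 (AT3G13550), a ubiquitin conjugation factor, of -0.41. SPA1 (AT2G46340) and SPA2 (AT4G11110), chosen with their values known, were at -0.11 and -0.01.

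HY5 stood at 3.87 in Col-0 and 2.99 in bts-1, an FPKM of 13.6 and 6.93, with a log2 ratio of -0.88. The bts-1 library is the lower of the pair. Of 7636 genes near its level, 5.47% had a ratio at least as large in size. HYH differed in the same direction, at 4.41 in Col-0 and 3.72 in bts-1, a ratio of -0.69. Of 7463 genes near its listed level, 8.44% had a ratio at least as large in size. The FPKM of HY5 was 0.495 of that of COP1 in Col-0 and 0.338 in bts-1. With a pseudocount of 5 the ratios of HY5 and HYH were -0.64 and -0.56.

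The level of HYH, and that of PIF5 and other genes whose identifiers begin with AT3G, is uncertain per length. On chromosome 3 levels followed how long the exons of the next annotated gene are, with a slope of -0.57 (SE 0.03) per log2 unit in Col-0, against -0.02 to 0.04 on the other chromosomes. Rescaled by exon lengths, HYH stood at 5.55 and 4.84 with a ratio of -0.71, and PIF5 at 9.31 and 8.98 with a ratio of -0.32. The rescaling multiplies both libraries of a gene by the same factor and can hardly move a ratio, so the near-equal ratios are no support for them.

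Of 12 listed genes that HY5 is known to promote, 11 had an entry and all 11 had a ratio below 0, beside 45.1% of all genes. This list, like the others here, was chosen with earlier results of these data known, so its counts are no support. Past 2-fold were 0 upward and 2 downward, beside 1.92% and 3.63% (median -0.87, and -0.55 without chromosome 3 genes). Both are early light-induced proteins of photoprotection: ELIP2 (AT4G14690) at 6.76 in Col-0 and 4.65 in bts-1, a ratio of -2.11, and ELIP1 (AT3G22840) at 4.58 and 2.86, a ratio of -1.72. Chalcone isomerase CHI (AT3G55120) and flavanone hydroxylase F3H (AT3G51240), enzymes of flavonoid synthesis, followed at -0.99 and -0.97. Chosen with their values known, the flavonoid regulator MYB75 (AT1G56650) and the flavonoid enzyme genes FLS1 (AT5G08640) and CHS (AT5G13930) were at -0.93, -0.87 and -0.69, and the smallest ratio of the list was -0.02 for PORC (AT1G03630), an enzyme of chlorophyll synthesis whose gene overlaps AT1G03620. The number at least 2-fold lower was 5 with a pseudocount of 0.1, 4 with ratios centred on the nuclear median and 1 without chromosome 3 genes. In those settings 5.39%, 3.93% and 3.66% of all genes were at least 2-fold lower. A G-box lies in 2 of the 12 promoter windows of this list, those of ELIP1 and MYB12 (AT2G47460), beside 4.78% of all windows, and MYB12 has no entry in the table.

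**Figure D3:**
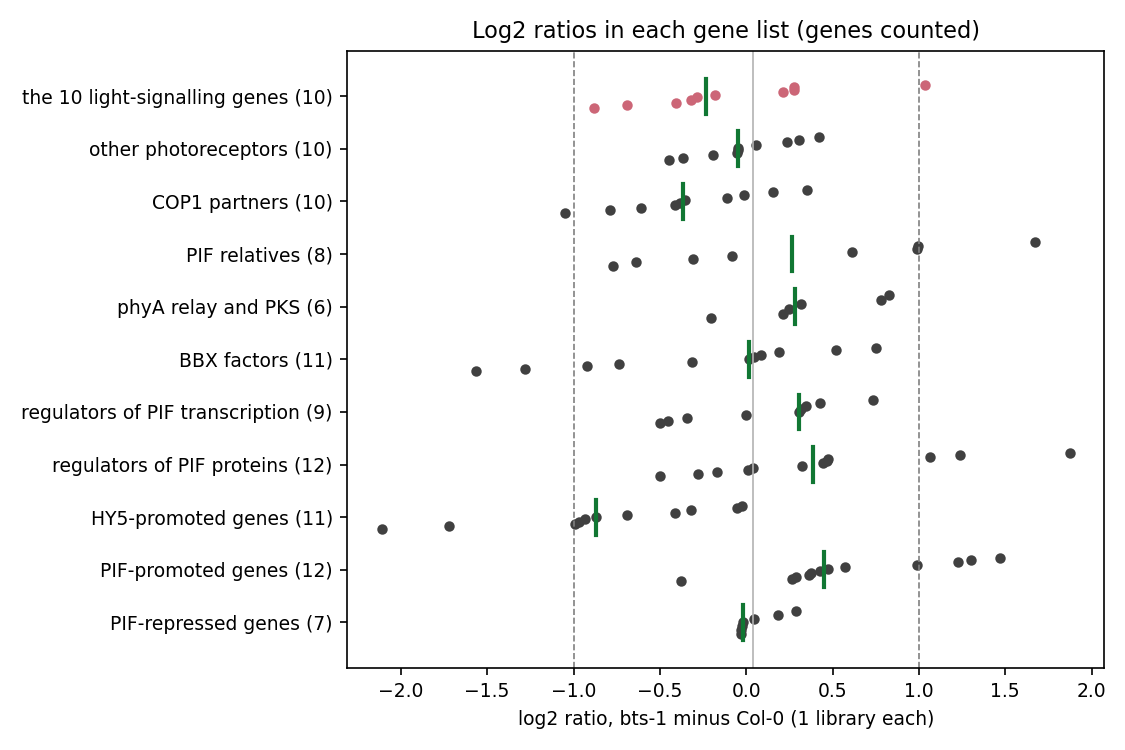
Log2 ratio, bts-1 minus Col-0, of each gene counted in each list (number counted in brackets), with 1 library per genotype. Green bars are list medians, the grey line is the median of all genes counted (0.04) and dashed lines mark 2-fold; the HY5-promoted genes lie between -2.11 and -0.02 and the PIF-promoted genes between -0.38 and 1.47.

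B-box proteins bind HY5 or COP1 and raise or lower HY5 activity. Of 12 BBX genes listed, 11 had an entry, and 0 passed 2-fold upward and 2 downward, beside 1.92% and 3.63% of all genes (median 0.01, and -0.02 with ratios centred on the nuclear median). The number lower was 4 with a pseudocount of 0.1, and 1 with a pseudocount of 5, with a minimum FPKM of 5 or without chromosome 3 genes. The shares of all genes lower in those settings were 5.39%, 1.37%, 3.28% and 3.66%. BBX31 (AT3G21890), one of the short B-box microproteins, stood at 2.07 and 0.50, a ratio of -1.57. It reached the minimum FPKM in Col-0 alone (3.19, against 0.415 in bts-1), so the minimum fixed its direction. BBX18 (AT2G21320) stood at 4.91 and 3.63, a ratio of -1.28. The microprotein gene BBX30 (AT4G15248) was at -0.92. BBX22 (AT1G78600), a partner of HY5 that promotes the light response, went the other way at 2.61 and 3.36, a ratio of 0.75. BBX21 (AT1G75540), an activator of HY5 transcription, was chosen with its value known, at 0.52.

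PIF4, which drives elongation in shade and warmth, stood at 6.61 in Col-0 and 6.89 in bts-1, a log2 ratio of 0.28. PIF3, the factor first found as a phytochrome partner, stood at 3.67 and 3.88, a ratio of 0.21. PIF1, a repressor of seed germination and greening, stood at 5.47 and 5.29, a ratio of -0.18. PIF1 is the one of the 10 genes that overlaps another annotated gene, AT2G20170 on the opposite strand; the kit marks strand, and how the counting used it is not stated in the labels. The same limit holds for PIF7, PHOT2, LKP2, SPA3, SPA4, PIF6, EBF2, ELF3, XTR7, F3H, CHS, PSY, PORC, PYK10 and CASP1. CKX5 has overlapping neighbours listed on both strands, while that of PHYE lies on the same strand. PIF5, a close relative of PIF4, was listed at 10.18 and 9.85, a ratio of -0.32. None of the 4 PIF genes was near 2-fold, and between 27.0% and 53.6% of genes near their levels had a ratio at least as large in size. PIF4 made up 37.8% of the summed FPKM of PIF1, PIF3, PIF4, PIF7 and PIF8 in Col-0 and 49.3% in bts-1. That sum was 256 and 238, and the FPKM of PIF4 was 96.6 and 117. PIF8 had an FPKM of 65.7 and 38.1, a share of 25.7% and 16.0%, so the PIF4 share also reflects the lower PIF8. The shares of PIF1 and PIF7 were lower in bts-1 too, and that of PIF3 was higher. The FPKM of PIF4 was 7.10 times that of HY5 in Col-0 and 16.9 times in bts-1, with HY5 at 13.6 and 6.93.

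**Figure D4:**
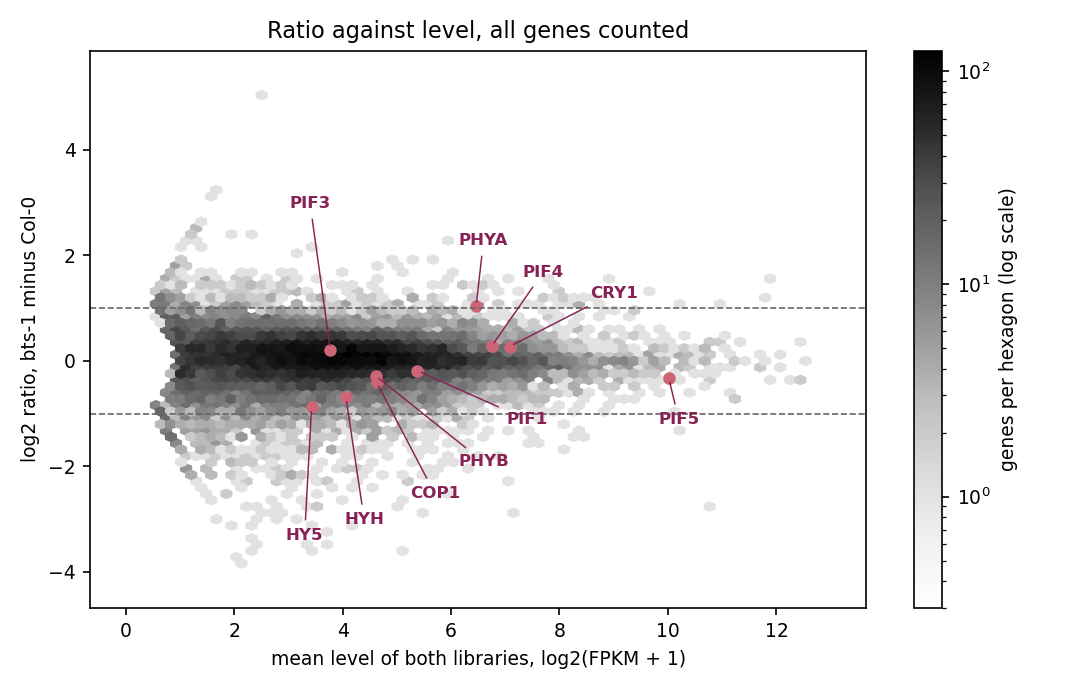
Log2 ratio, bts-1 minus Col-0, against the mean level of both libraries for the 18510 genes counted, shaded by the number of genes per hexagon on a log scale, with the 10 genes in colour and dashed lines at 2-fold. PHYA lies at 1.04 just above the upper line, HY5 at -0.88 and HYH at -0.69 lie toward the lower one, and the 4 PIF genes lie between -0.32 and 0.28.

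Of 9 listed relatives of the PIF factors, 8 had an entry, with 4 ratios above 0 and 4 below. Past 2-fold were 1 upward and 0 downward, beside 1.92% and 3.63% of all genes (median 0.27, and -0.08 with a minimum FPKM of 5). The number higher was 3 with a pseudocount of 0.1 or with nuclear genes scaled to the same sum, and 0 without chromosome 3 genes. The shares of all genes higher in those settings were 3.97%, 2.01% and 1.98%. The one past 2-fold was PIF6 (AT3G62090), a PIF family member of chromosome 3, at 2.28 in Col-0 and 3.95 in bts-1, a ratio of 1.67. The shade-induced genes PAR1 (AT2G42870) and HFR1 (AT1G02340), whose proteins bind PIF proteins and hold them off DNA, were at 3.37 and 4.37 and at 3.03 and 4.02, each with a ratio just under the line (1.00 and 0.99). PIF8 (AT4G00050), listed as UNE10, stood at 6.06 and 5.29, a ratio of -0.77. PIL1 (AT2G46970) has no entry.

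Genes that PIF proteins are known to promote had ratios mostly above 0. They were listed with earlier results of these data known, so their counts are no support. Of 13 listed genes 12 had an entry, 11 had a ratio above 0, beside 54.8% of all genes, and 3 passed 2-fold upward and 0 downward, beside 1.92% and 3.63% (median 0.45). YUC9 and CKX5 (AT1G75450), a cytokinin-degrading enzyme gene chosen with its value known, reached the minimum FPKM in bts-1 alone, so the minimum fixed the direction of their ratios and their place in these counts is no support. XTR7 (AT4G14130), a cell wall enzyme induced in shade, stood at 3.85 and 5.32, a ratio of 1.47. YUC8 (AT4G28720) stood at 1.26 and 2.56, a ratio of 1.30. YUC9 (AT1G04180) stood at 0.15 and 1.38, a ratio of 1.23 from one of the lowest levels of the Col-0 column. HFR1, already counted among the relatives, is in this list too. The gene below 0 was HAT1 (AT4G17460), a homeobox factor, at -0.38. The number at least 2-fold higher was 5 with a pseudocount of 0.1, and 1 with a pseudocount of 5 or a minimum FPKM of 5. The shares of all genes higher in those settings were 3.97%, 0.546% and 1.40%. The CACATG pattern lies in 3 of the 13 promoter windows of this list, those of YUC8, YUC9 and ACS8 (AT4G37770), beside 6.89% of all windows.

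Genes that PIF proteins are known to hold down differed little. All 7 had an entry, and the median was -0.02, beside 0.04 for all genes counted. Of the 7, 0 passed 2-fold upward and 0 downward, beside 1.92% and 3.63% of all genes. A count of 0 in so short a list says little. GLK2 (AT5G44190), a factor for chloroplast development, was at 0.29, HEMA1 (AT1G58290), of tetrapyrrole synthesis, at 0.19, LHCA1 (AT3G54890), a light-harvesting protein, at 0.04 and PSY (AT5G17230), of carotenoid synthesis, at -0.03.

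Of 13 genes whose proteins control PIF proteins, 12 had an entry, and 3 passed 2-fold upward and 0 downward, beside 1.92% and 3.63% of all genes (median 0.38, and 0.18 without chromosome 3 genes). EBF2 (AT5G25350) and EBF1 (AT2G25490), F-box proteins that direct the breakdown of EIN3 and, in light, of PIF3, stood at 4.36 and 6.23 and at 4.66 and 5.90, with ratios of 1.87 and 1.24. GAI (AT1G14920), a DELLA protein that binds PIF proteins and blocks their action, stood at 4.50 and 5.57, a ratio of 1.07. The DELLA gene RGL3 (AT5G17490) was at -0.50. Another DELLA gene, RGA (AT2G01570), chosen with its value known, was at 0.01.

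Of 11 listed clock and ethylene factors that control PIF transcription, 9 had an entry (median 0.31, and -0.00 without chromosome 3 genes). Of the 9, 0 passed 2-fold upward and 0 downward, beside 1.92% and 3.63% of all genes. A count of 0 in so short a list says little. PRR7 (AT5G02810), a daytime repressor of PIF4 and PIF5, stood at 4.95 and 5.69, a ratio of 0.74, and ELF3 (AT2G25930), of the evening complex that represses both, at 2.67 and 3.10, a ratio of 0.43. The morning genes LHY (AT1G01060) and CCA1 (AT2G46830) were at 7.58 and 7.07 and at 7.60 and 7.15, with ratios of -0.50 and -0.46. As the hour of harvest is not given, a difference in clock phase between the libraries and a difference between the genotypes cannot be told apart.

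Of 8 listed genes for the path of phyA into the nucleus and its partners, 6 had an entry (median 0.28). Of the 6, 0 passed 2-fold upward and 0 downward, beside 1.92% and 3.63% of all genes. There were 5 ratios above 0, beside 54.8% of all genes. These genes too were listed with earlier results of these data known. FHY1 (AT2G37678), which carries phyA into the nucleus, stood at 2.60 and 3.38, a ratio of 0.78. PKS4 (AT5G04190) and PKS2 (AT1G14280), phytochrome kinase substrates, were at 0.83 and 0.32, and FAR1 (AT4G15090), an activator of FHY1 transcription, at 0.25.

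The order of levels is a description, since no spread is known. In Col-0 it ran from CRY1 (6.94) through PIF4 (6.61), PHYA (5.94), PIF1 (5.47), COP1 (4.83), PHYB (4.76) and HY5 (3.87) to PIF3 (3.67), leaving out chromosome 3. In bts-1 PHYA (6.98) stood above PIF4 (6.89), PHYB (4.47) above COP1 (4.43), and PIF3 (3.88) above HY5 (2.99). By distance over the 2 library values, the named genes nearest to PHYA were the plastid gene petL (ATCG00590), for a cytochrome b6f subunit, at 5.95 and 6.97, the plastid protease gene clpP (ATCG00670) at 5.95 and 7.01, and the patellin gene PATL2 (AT1G22530) at 5.95 and 7.01. With 2 libraries such likeness is a likeness of level and ratio only.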

How the data were processed

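Total RNA of seedling shoots was sequenced from 1 Col-0 and 1 bts-1 library; per the labels' protocols the RNA was freed of DNA and the kit keeps strand. Tools credited to the submitters' processing notes are HTSeq 0.9.1, TopHat2 2.1.0, Bowtie, cutadapt 1.12 and CASAVA 1.8.2, with the TAIR10 build and no order or settings. The deposited values, named as normalized FPKM, were read as log2(FPKM + 1): unlogged to base 2 and weighted by exon length they summed to 1589846 in Col-0, nearer to the per-million total that FPKM implies than the 26824109 found with natural logs. Sorted, both columns lie within 0.001 at 98.0% of ranks, as after quantile normalization, which removes an overall difference between libraries; no label records that step. The design had assumed linear FPKM; the deposited values already hold the pseudocount of 1, so the log2 ratio is the difference of the columns and understates differences of low genes. No counts are given, so the depth is unknown and no interval can be given.

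2 rows without a gene name, 4.33% of the summed FPKM in Col-0 and 4.34% in bts-1, were left out. No test was run, with 1 library per genotype. For the 10 genes and each list above, the counts are set beside the share of all genes past that fold. The 10 genes and the lists of 104 pathway genes were chosen with earlier results of these data known. Of the pathway genes 95 were counted, with 7 at least 2-fold higher and 5 lower, beside 1.92% and 3.63% of all genes. These totals include YUC9 and BBX31, which reached the minimum FPKM in 1 library alone, so the totals are no support. Named are all 10 genes, the 4 genes of each list with the largest ratio and all past 2-fold, BTS, and the 3 genes nearest to PHYA. Every other gene named was chosen with its value known. Exon lengths and promoters came from RefSeq TAIR10.1, matched by identifier; for rescaling, the next gene skipped long non-coding and antisense genes of that annotation, which may differ from the authors'. Counts and slopes were tested on simulated data. Python 3.11.15, numpy 2.4.6, pandas 2.3.3 and matplotlib 3.10.9 were used. Alternatives were other pseudocounts, minimum levels, scalings and folds, and leaving out chromosome 3, the last added after the data were seen.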

Additional observations from a re-analysis of the deposited data

How the results depend on the processing

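No paired analysis was possible because each genotype has 1 library. The log2 ratios of the 10 genes kept their sign under every alternative run for them. Other pseudocounts, the exon-length rescaling and leaving out chromosome 3 cannot change a sign, so that agreement is no support. A shift of up to 0.1 in a ratio or median was taken as no change, as was a count within 1.5-fold of the main one. Counts taken as unchanged include 2 PIF protein regulators higher with a pseudocount of 5. They also include 4 PIF-promoted genes higher with same-sum scaling or at 1.5-fold, and 3 HY5-promoted lower with chromosome 3 rescaled. PHYA was 0.990334 with a pseudocount of 5 and 0.999853 centred on the nuclear median, so that 0 of the 10 genes were then at least 2-fold higher; with a pseudocount of 5, HY5 was -0.64 and HYH -0.56. At a 1.5-fold threshold 2 of the 10 genes were lower, and without chromosome 3 their median was 0.0153. With a pseudocount of 0.1, the PIF relatives had 3 genes higher (median 0.39), BBX 4 lower, HY5-promoted 5 lower and PIF-promoted 5 higher. With a pseudocount of 5, COP1 partners had 0 lower (median -0.26), BBX 1 lower, PIF-promoted 1 higher (median 0.26), and the medians of PIF relatives and HY5-promoted genes were 0.11 and -0.61. Centring gave 4 HY5-promoted genes lower, and scaling nuclear genes to the same sum gave 3 PIF relatives higher. With a minimum FPKM of 5, the PIF relatives had a median of -0.0804, BBX 1 lower and PIF-promoted 1 higher. At 1.5-fold there were 3 COP1 partners lower, 4 PIF relatives higher and 2 lower, 2 phyA relay genes higher, 1 BBX higher and 4 lower, 1 PIF transcription regulator higher and 7 HY5-promoted genes lower. Without chromosome 3, PIF relatives had 0 higher (median 0.15), BBX 1 lower and HY5-promoted 1 lower (median -0.55), and the medians of COP1 partners, PIF transcription regulators and PIF protein regulators were -0.23, -0.00396 and 0.18. By construction fewer genes are counted with a minimum FPKM of 5 (14129 over all genes) and without chromosome 3 (14873). A lower fold threshold also calls at least as many genes by construction, and a larger pseudocount makes every ratio smaller in size. Centring takes the same value from every ratio, and scaling to the same sum multiplies every bts-1 FPKM by the same factor. Over all genes, the number at least 2-fold higher and lower was 356 and 672. It was 735 and 997 with a pseudocount of 0.1, and 101 and 254 with 5. Centring gave 315 and 727, same-sum scaling 373 and 648, and leaving out chromosome 3 294 and 545. With a minimum FPKM of 5 it was 198 and 464. At 1.5-fold 1394 were higher and 1726 lower, which is 7.53% and 9.32% of genes counted. The depth is unknown, so what it limits cannot be stated.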

Other observations

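Genes beside the lists above, chosen after the data were seen, showed small differences except for PORB. Phytochromes carry a bilin pigment made by haem oxygenases and a bilin reductase. HY1 (AT2G26670), the main haem oxygenase, stood at 6.32 in Col-0 and 6.54 in bts-1, its relative HO2 (AT2G26550) at 4.69 and 5.02, and HY2 (AT3G09150), the bilin reductase, at 4.39 and 4.51. Their log2 ratios were 0.22, 0.32 and 0.12, below the 1.04 of PHYA.

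The COP9 signalosome removes a ubiquitin-like tag from the ligases with which COP1 works. All 10 of its subunit genes had an entry, and 0 passed 2-fold upward and 0 downward, beside 1.92% and 3.63% of all genes. The median log2 ratio was 0.15, with a range from -0.23 for CSN7 (AT1G02090) to 0.45 for CSN5B (AT1G71230). The light-dependent protochlorophyllide reductase genes PORB (AT4G27440) and PORC, both of chlorophyll synthesis, stood at 4.76 and 6.64 and at 7.36 and 7.34, ratios of 1.88 and -0.02, and PORA (AT5G54190) has no entry.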
